A study of Danio rerio with 4 samples.

Results

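Filamin C and the proteins that keep the Z-disc in repair were followed through 10 zebrafish genes: flnca, flncb, bag3, hspb8, synpo2la, synpo2lb, unc45b, hsp90aa1.1, smyd1a and smyd1b. The genes were taken by symbol from the gene tables of whole embryos at 72 h post fertilization (hpf), where all 10 were present among 32057 genes. The embryos were nexn-/-, homozygous for a CRISPR/Cas9-induced deletion of 32 nucleotides in exon 2 of nexn in a single line, or nexn+/+, without the deletion. Each genotype had 2 libraries, each from the pooled RNA of 25 embryos, and the parents of both genotypes were offspring of a heterozygous pair, kept in separate tanks. The labels call the libraries biological replicates but do not say whether the pools came from separate clutches, so p-values measure only the spread between these pools. As the knockout is constitutive, every tissue of the nexn-/- embryos carried it, and a difference between genotypes cannot be told apart from a difference between the parents.

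The Z-disc anchors the actin filaments of neighbouring sarcomeres and is under load with every contraction. Filamin C crosslinks actin there and is unfolded by tension. The cochaperone Bag3 works with the small heat shock protein Hspb8 and with Hspa8 to recognise damaged filamin and pass it to autophagy, a route known from mammalian muscle as chaperone-assisted selective autophagy. The thick filament has its own quality control, in which Unc45b and the muscle form of Hsp90 fold myosin heads and Smyd1 methyltransferases bind to both. In zebrafish, loss of Unc45b, Hsp90a or Smyd1b is known to leave muscle without ordered thick filaments.

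The libraries held between 19413597 and 21956272 estimated counts. Levels are given as CPM, the share of the library total taken by a gene, scaled between libraries by edgeR's TMM factors, and a gene was called when its Benjamini-Hochberg adjusted p in the quasi-likelihood test of edgeR was under 0.05 and its log2 fold change (log2(FC), nexn-/- over nexn+/+) beyond 0.5. The targeted gene nexn had 895 and 1165 counts in nexn-/- embryos, against 1700 and 1496 in nexn+/+ embryos, a log2(FC) of −0.91 (SE 0.168, adjusted p = 0.00737). It was lower in both nexn-/- libraries, and since the deletion as labelled gives no direction for the transcript level, this is no check of the labels. Of 10 markers of other tissues of the embryo, all were detected in every library. Of them, 3 were called higher and 3 lower, or 30% each, beside 16.7% and 13.9% of all genes tested. The nexn+/+ libraries differed from each other in muscle transcripts. The 24 markers of fast skeletal muscle summed to 82461 and 88357 CPM in nexn-/- embryos, against 138370 CPM in nexn+/+ replicate 1 and 63747 CPM in nexn+/+ replicate 2. The 11 markers of slow skeletal muscle summed to 17165 and 18132 CPM in nexn-/- embryos, against 24785 and 8906 CPM in nexn+/+ replicates 1 and 2. In both sums the nexn-/- libraries lay between the nexn+/+ libraries, and in bulk RNA fewer muscle cells and less RNA per muscle cell cannot be told apart. The 15 heart markers summed to only 190 and 199 CPM in nexn-/- embryos, against 79.0 and 64.9 CPM in nexn+/+ embryos. Of the 11 heart markers tested, 10 were called higher (90.9%, beside 16.7% of all genes tested), whereas bmp10 was at 0 in all 4 libraries. The heart markers vmhc and vmhcl were not found by symbol and are not in the sum. Of the 24 fast muscle markers 0 were called, and of 10 slow muscle markers tested 1 was called higher.

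All 10 genes passed the filter on low counts. Both filamin C genes, bag3, hspb8 and synpo2lb rose in nexn-/- embryos, between 2.08-fold for flnca and 3.52-fold for flncb. The myosin chaperone genes unc45b, hsp90aa1.1, smyd1a and smyd1b and the Z-disc gene synpo2la did not pass the test. Thus 5 of 10 were called higher and 0 lower, beside 30.6% of all 20312 genes tested called in either direction, 16.7% called higher and 13.9% called lower. With an unadjusted p under 0.05, 0 of the 10 were lower by edgeR, and 0 were called lower by DESeq2 or limma-voom. In 6 of the 10, both nexn-/- libraries lay above both nexn+/+ libraries, as they did in 36.4% of the genes tested. The median log2(FC) of the 10 genes was 0.82, beside 0.02 over all genes tested.

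**Figure D1:**
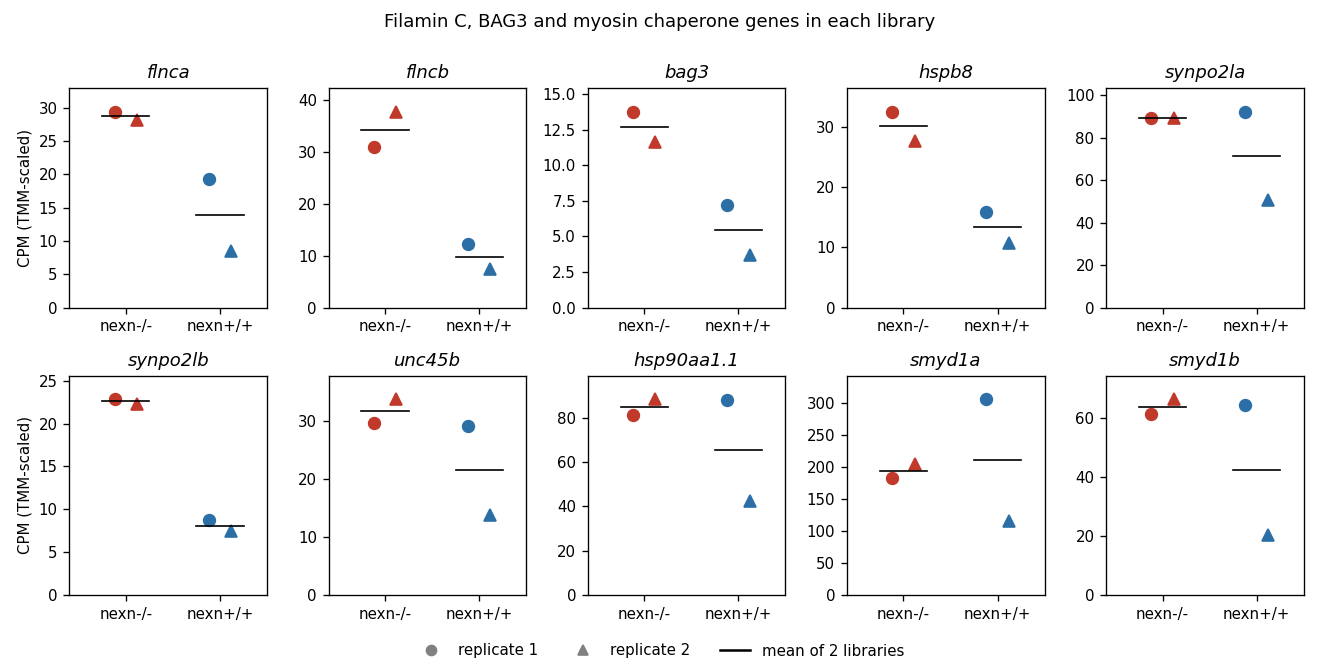
CPM of each of the 10 genes (vertical axes, linear from 0) in the nexn-/- libraries (red) and the nexn+/+ libraries (blue), with replicate 1 as a circle, replicate 2 as a triangle and the mean of both libraries as a line. In flnca, flncb, bag3, hspb8 and synpo2lb all red points lie well above all blue points, in unc45b just above them, and in the other 4 genes nexn+/+ replicate 1 is level with or above a red point.

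Both filamin C genes rose, flncb more than any other of the 10 genes. flncb (ENSDARG00000018820) had 30.8 and 37.7 CPM in nexn-/- embryos, against 12.2 and 7.35 CPM in nexn+/+ embryos. The groups did not overlap, and the lower nexn-/- library stood far above the higher nexn+/+ library. Its log2(FC) was 1.82 (SE 0.238, adjusted p = 0.00242). flnca (ENSDARG00000018566) had 29.4 and 28.2 CPM in nexn-/- embryos, against 19.2 and 8.56 CPM in nexn+/+ embryos. The nexn-/- libraries lay close together and the nexn+/+ libraries 2.25-fold apart, without overlap between genotypes. The log2(FC) of flnca was 1.06 (SE 0.326, adjusted p = 0.0446), which is near the limit. Its log2(FC) was 1.75 when nexn+/+ replicate 1 was left out and 0.58 when replicate 2 was.

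bag3 and hspb8, which encode the cochaperone and the small heat shock protein of the filamin-clearing complex, rose by similar factors. bag3 (ENSDARG00000039486) had 13.8 and 11.6 CPM in nexn-/- embryos, against 7.19 and 3.68 CPM in nexn+/+ embryos. Its log2(FC) was 1.23 (SE 0.308, adjusted p = 0.0221). It rested on few counts, with 307 and 266 counts in nexn-/- embryos, against 127 and 73 in nexn+/+ embryos. hspb8 (ENSDARG00000058365) had 32.5 and 27.6 CPM in nexn-/- embryos, against 15.9 and 10.7 CPM in nexn+/+ embryos. Both of its nexn-/- libraries were above both nexn+/+ libraries, with a log2(FC) of 1.18 (SE 0.202, adjusted p = 0.00581). Within a library the counts of bag3 stood to those of hspb8 at 0.424 and 0.422 in nexn-/- embryos and at 0.452 and 0.344 in nexn+/+ embryos, so that the nexn-/- ratios lay between the nexn+/+ ratios. Leaving out a nexn+/+ library gave bag3 a log2(FC) of 1.79 (replicate 1 left out) or 0.82 (replicate 2 left out).

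The paralogs synpo2la and synpo2lb, which encode synaptopodin 2-like proteins of the Z-disc, differed from each other. synpo2lb (ENSDARG00000078696) had 22.9 and 22.3 CPM in nexn-/- embryos, against 8.72 and 7.45 CPM in nexn+/+ embryos, with the smallest spread between nexn+/+ libraries among the 10 genes. Its log2(FC) of 1.48 (SE 0.145, adjusted p = 0.0013) moved least when a library was left out, between 1.37 and 1.60. synpo2la (ENSDARG00000077293), the more abundant paralog, had 89.5 and 89.3 CPM in nexn-/- embryos, against 92.3 and 50.8 CPM in nexn+/+ embryos. The nexn-/- libraries were nearly equal and both lay within the range of the nexn+/+ libraries. Its log2(FC) was 0.32 (SE 0.252, adjusted p = 0.36).

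In the myosin folding genes the nexn+/+ libraries were far apart and the nexn-/- libraries close together. unc45b (ENSDARG00000008433), the myosin head chaperone, had 29.8 and 33.9 CPM in nexn-/- embryos, against 29.2 and 13.9 CPM in nexn+/+ embryos. The genotypes did not overlap, by a margin that was small beside the spread of the nexn+/+ libraries, and the log2(FC) of 0.57 (SE 0.307, adjusted p = 0.194) did not pass the test. hsp90aa1.1 (ENSDARG00000010478), the Hsp90 gene of striated muscle in zebrafish, had 81.2 and 88.4 CPM in nexn-/- embryos, against 88.0 and 42.4 CPM in nexn+/+ embryos. Its groups overlapped, with a log2(FC) of 0.38 (SE 0.301, adjusted p = 0.366).

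The methyltransferase gene smyd1b (ENSDARG00000091253) had 61.2 and 66.4 CPM in nexn-/- embryos, against 64.5 and 20.3 CPM in nexn+/+ embryos. This was the widest spread between nexn+/+ libraries in the group, 3.18-fold, and the log2(FC) of 0.59 had an SE of 0.449 (adjusted p = 0.344). smyd1a (ENSDARG00000009280), its paralog and the most abundant of the 10 genes, had 183 and 205 CPM in nexn-/- embryos, against 306 and 116 CPM in nexn+/+ embryos. Both nexn-/- libraries lay between the nexn+/+ libraries. The log2(FC) was −0.12 (SE 0.392, adjusted p = 0.84), and its sign turned under several settings, among them library size alone (0.074) and the effective length of the gene in each library (0.047). That length, the stretch over which reads of the gene could start, was 1116 and 1139 nucleotides in the nexn-/- libraries, against 1218 and 1413 nucleotides in the nexn+/+ libraries.

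**Figure D2:**
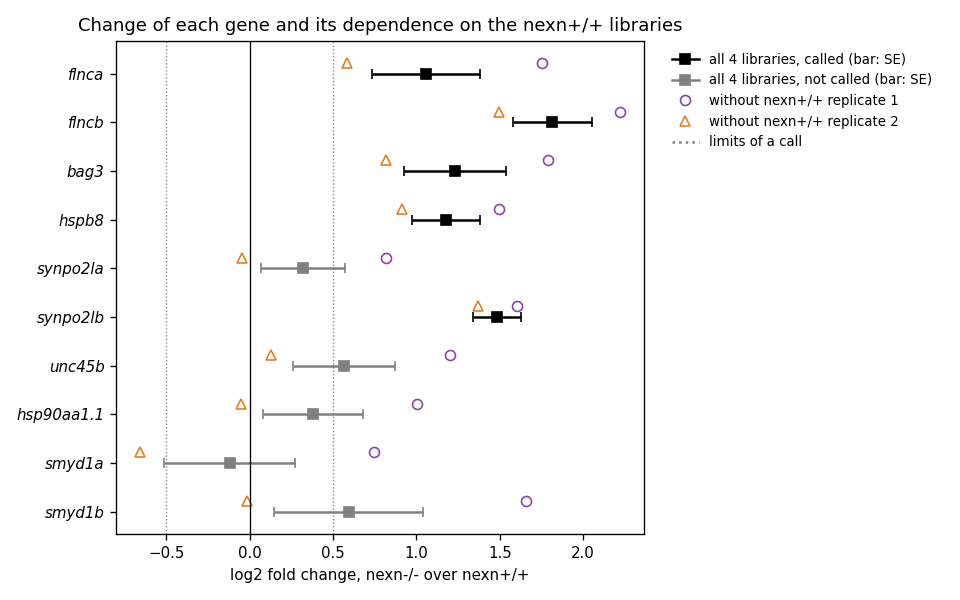
log2(FC) of each gene, nexn-/- over nexn+/+ (horizontal axis), with all 4 libraries as a square (bar: standard error; black: called, grey: not called), without nexn+/+ replicate 1 as an open circle and without nexn+/+ replicate 2 as an open triangle. Circles lie to the right of triangles in all 10 genes, from 1.60 against 1.37 in synpo2lb to 1.66 against −0.016 in smyd1b.

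The counts of called genes depended on single libraries. Without nexn+/+ replicate 1, the library rich in muscle transcripts, 10 of 10 genes were called higher, where 24.3% of all genes were. The log2(FC) values of the genes not called with all libraries were then 0.82 for synpo2la, 1.2 for unc45b, 1.00 for hsp90aa1.1, 0.75 for smyd1a and 1.66 for smyd1b. Without nexn+/+ replicate 2, flnca, flncb, bag3, hspb8 and synpo2lb were called higher, as were 21.1% of all genes, and smyd1a was called lower (log2(FC) of −0.66). The values of synpo2la, unc45b, hsp90aa1.1 and smyd1b were then −0.046, 0.12, −0.054 and −0.016. Leaving out either nexn-/- library left 0 of the 10 genes called and 4 of 20312 genes tested, since the spread then came from the nexn+/+ libraries alone. The adjusted p of the 5 genes called with all libraries lay between 0.0641 and 0.251 without nexn-/- replicate 1 and between 0.0635 and 0.222 without nexn-/- replicate 2, with log2(FC) values of at least 1.02. With a nexn+/+ library left out, the spread came from the nexn-/- libraries alone, so those calls do not take in the spread between nexn+/+ libraries. In all fits with a library left out, the lone library of a genotype is assumed to vary like the others.

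The nexn+/+ libraries differed from each other in these genes and in muscle markers. Replicate 1 was higher than replicate 2 in all 10 genes, from 1.17-fold in synpo2lb to 3.18-fold in smyd1b. The summed markers of fast skeletal muscle were 2.17-fold and those of slow skeletal muscle 2.78-fold higher in replicate 1, whereas the heart markers were 1.22-fold higher. flnca, unc45b and hsp90aa1.1, at 2.25-fold, 2.10-fold and 2.07-fold, lay near the fast muscle sum. bag3, synpo2la, flncb, hspb8 and synpo2lb, at 1.96-fold, 1.82-fold, 1.66-fold, 1.49-fold and 1.17-fold, lay below it. smyd1b and smyd1a, at 3.18-fold and 2.65-fold, lay above it.

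**Figure D3:**
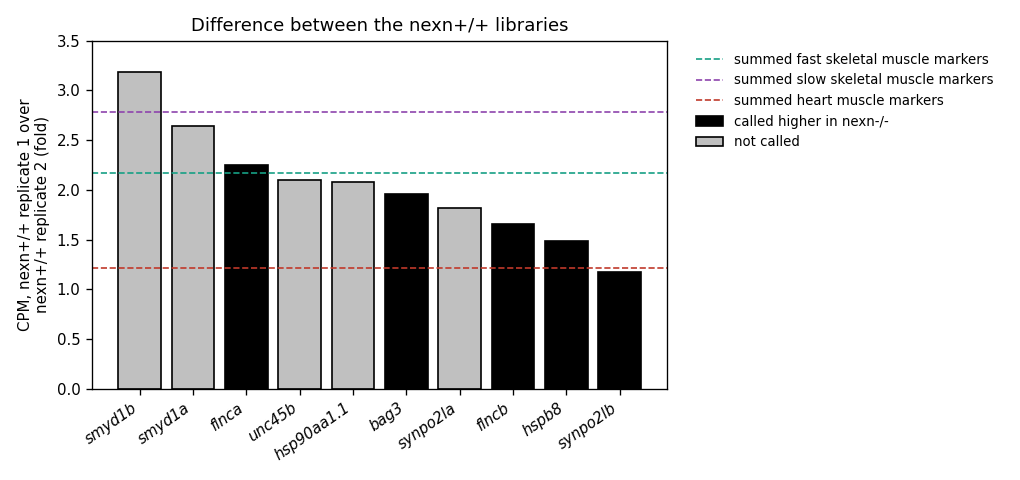
CPM of nexn+/+ replicate 1 over nexn+/+ replicate 2 for each gene (bars, linear axis from 0; black: called higher in nexn-/- embryos, grey: not called), with the same ratio for the summed markers of fast skeletal muscle, slow skeletal muscle and heart as dashed lines. The 2 smyd1 genes stand highest, at 3.18-fold and 2.65-fold, and synpo2lb lowest, at 1.17-fold.

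Set against the counts of the fast muscle markers, none of the 10 genes overlapped between genotypes, with nexn-/- embryos always higher, as in 27.5% of the genes tested. The genes were not set against the slow muscle or heart sums. Those sums differed by 0.067 and 1.43 on the log2 scale, nexn-/- over nexn+/+. With TMM, the log2(FC) of flnca (1.06), bag3 (1.23) and hspb8 (1.18) was smaller than the heart value. Those of synpo2lb (1.48) and flncb (1.82) were larger, and that of smyd1a (−0.12) was below the slow muscle value. The lack of overlap was thus shown for the fast muscle sum alone. Per 10000 fast muscle counts, flncb had 3.74 and 4.26 counts in nexn-/- embryos, against 0.880 and 1.15 in nexn+/+ embryos. The nexn+/+ libraries came closer together on this scale for flnca, with 3.57 and 3.19 in nexn-/- embryos, against 1.39 and 1.34 in nexn+/+ embryos. The same held for unc45b, with 3.62 and 3.83 in nexn-/- embryos, against 2.11 and 2.18 in nexn+/+ embryos. For synpo2lb the nexn+/+ libraries moved apart, with 2.77 and 2.52 in nexn-/- embryos, against 0.630 and 1.17 in nexn+/+ embryos. For smyd1a the groups barely parted, with 22.2 and 23.2 in nexn-/- embryos, against 22.1 and 18.2 in nexn+/+ embryos. In the fit across all genes on this scale 0 of the 10 genes were called (3 had an unadjusted p under 0.05), with adjusted p-values between 0.145 for flncb and 1.00 for synpo2la and smyd1a, and 2.37% of all genes were called higher. On this scale the log2(FC) values of the genes called with TMM were 1.305 for flnca, 1.98 for flncb, 1.45 for bag3, 1.32 for hspb8 and 1.56 for synpo2lb. The SE grew, for flncb to 0.73 from 0.238 with TMM. The mean fast muscle sum was itself lower in nexn-/- embryos (−0.24 on the log2 scale), which makes the divisor smaller there. Whether the genes changed beyond muscle content was not tested.

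Paralogs were also compared by their ratio within each library, which does not depend on scaling between libraries. In all 3 pairs of paralogs among the 10 genes the balance differed between genotypes without overlap. The share of other gene pairs whose ratios part in this way was not computed. flnca stood to flncb at 0.953 and 0.748 in nexn-/- embryos, against 1.58 and 1.16 in nexn+/+ embryos, so that flncb had more counts than flnca in both nexn-/- libraries and fewer in both nexn+/+ libraries. synpo2la stood to synpo2lb at 3.91 and 4.01 in nexn-/- embryos, against 10.6 and 6.82 in nexn+/+ embryos. The ratio of smyd1a to smyd1b was 2.996 and 3.08 in nexn-/- embryos, against 4.74 and 5.70 in nexn+/+ embryos. These are differences of −0.68, −1.10 and −0.78 on the log2 scale, with 0 overlap, and an exact two-sided permutation test gave p = 0.333 for each, the smallest value that 2 libraries against 2 allow. The difference for smyd1a over smyd1b was −0.59 in the TPM values, which take gene length in each library into account.

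hsp90aa1.1 was compared with its neighbour hsp90aa1.2 (ENSDARG00000024746), a second Hsp90a gene. hsp90aa1.2 had 97.3 and 97.8 CPM in nexn-/- embryos, against 141 and 233 CPM in nexn+/+ embryos. It was called lower, with a log2(FC) of −0.94 (SE 0.224, adjusted p = 0.0183). The ratio of hsp90aa1.1 to hsp90aa1.2 was 0.834 and 0.904 in nexn-/- embryos, against 0.623 and 0.182 in nexn+/+ embryos, without overlap (difference 1.37 on the log2 scale, exact two-sided permutation p = 0.333). The difference was 2.25 when nexn+/+ replicate 1 was left out and 0.48 when replicate 2 was. Their sum was 178 and 186 CPM in nexn-/- embryos, against 229 and 275 CPM in nexn+/+ embryos, so the sum was lower in both nexn-/- libraries. The estimated counts of both genes are not whole numbers, so reads that fit both copies were divided between them and the split is uncertain.

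**Figure D4:**
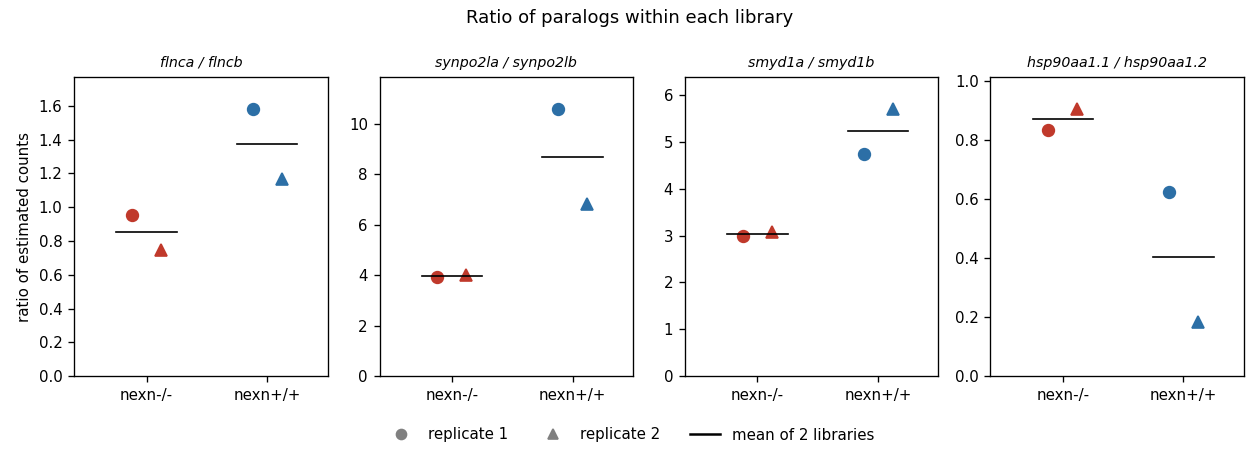
Ratio of the estimated counts of a pair of paralogs within each library (vertical axes, linear from 0; red: nexn-/-, blue: nexn+/+; circle: replicate 1, triangle: replicate 2; line: mean). The nexn-/- ratios lie below the nexn+/+ ratios for flnca over flncb, synpo2la over synpo2lb and smyd1a over smyd1b, and above them for hsp90aa1.1 over hsp90aa1.2.

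Levels of different genes were compared by the TPM values of the authors, which are scaled to gene length. The myosin folding genes smyd1a, smyd1b and hsp90aa1.1 had the highest levels in both genotypes, with synpo2la above unc45b, and the filamins and synpo2lb had the lowest. In nexn-/- embryos the order of the mean TPM was smyd1a (199.6 ± 8.80), smyd1b (54.4 ± 2.12), hsp90aa1.1 (43.8 ± 1.32), synpo2la (16.75 ± 0.523), unc45b (10.4 ± 0.707), hspb8 (8.88 ± 1.31), bag3 (7.48 ± 1.07), flncb (4.93 ± 0.594), synpo2lb (4.6 ± 0.283) and flnca (3.67 ± 0.177; SD, n = 2 libraries each). The ranges of hspb8 and bag3 and those of flncb and synpo2lb overlapped. In nexn+/+ embryos the first 7 genes had the same order, from smyd1a (165 ± 104) to bag3 (2.77 ± 0.955), followed by flnca (1.51 ± 0.665), synpo2lb (1.42 ± 0.0566) and flncb (1.23 ± 0.290; SD, n = 2 libraries each). There the ranges of smyd1b and hsp90aa1.1, of hspb8 and bag3, and of flnca, synpo2lb and flncb overlapped from one gene to the next.

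Other genes of these pathways were grouped into 6 lists. The list of other filamins and filamin C partners had 25 members tested. Of them, 8 rose and 1 fell, or 32% and 4%, beside 16.7% and 13.9% of all genes, with a median log2(FC) of 0.50. flna, the filamin of non-muscle cells, had 189 and 187 CPM in nexn-/- embryos, against 124 and 99.9 CPM in nexn+/+ embryos, and was called higher (log2(FC) 0.75, SE 0.135, adjusted p = 0.00691). flnb (0.38, adjusted p = 0.293) and synpo2b (0.12, adjusted p = 0.7) were not called. Nor were myoz1a (0.09), myoz1b (0.06), myoz2a (−0.06), myoz2b (0.62), myoz3a (0.37), myot (0.51) and ldb3a (0.45). Also not called were xirp2a (0.50), capn3b (0.34), inppl1b (0.04) and igfn1.3 (−0.47). xirp2b (1.70, adjusted p = 0.0635) and sgcd (0.93, adjusted p = 0.0573) missed the limit on adjusted p by little. Among the genes called higher were the integrin beta 1 genes itgb1b (2.13) and itgb1a (1.48), which link the matrix to the cytoskeleton in many cell types, and the gamma-sarcoglycan gene sgcg (1.85), whose protein binds filamin C at the muscle membrane. itgb1a had 202 and 183 CPM in nexn-/- embryos, against 82.7 and 55.4 CPM in nexn+/+ embryos. The log2(FC) of ky, a muscle gene, was 2.34, from 27 and 23 counts in nexn-/- embryos, against 4 and 4 in nexn+/+ embryos. Also called higher were capn3a (0.95), inppl1a (0.76) and xirp1 (0.70). ldb3b, a Z-disc gene with the highest CPM of the list (not scaled to gene length), was not called (−0.06), and the gene that fell was igfn1.1 (−0.97).

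The list of Bag3 partners and small heat shock proteins held 23 tested genes, with 3 called higher, 0 lower and a median log2(FC) of −0.00069. The shares were 13.0% and 0%, beside 16.7% and 13.9% of all genes. At an unadjusted p under 0.05, 6 of the 23 were higher and 1 lower by edgeR. DESeq2 called 4 higher and limma-voom 5, and both called 0 lower. Upper quartile and library size alone gave 5 higher and rpl13 gave 6. Of all genes, 20.1%, 21.7% and 25% were then called higher, in that order. Called higher were the small heat shock genes hspb7 (1.70), known from heart and skeletal muscle, and hspb1 (1.07), and hspa8b (1.80), which had at most 8 counts in a nexn+/+ library. hspa8, the abundant Hsp70 partner of Bag3, had 4670 and 4782 CPM in nexn-/- embryos, against 5335 and 4465 CPM in nexn+/+ embryos, and was not called (−0.05).

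The list of Hsp90 and myosin folding held 17 tested genes, with a median log2(FC) of 0.02. Of them, 0 were called higher and 1 lower, or 0% and 5.88%, beside 16.7% and 13.9% of all genes. At an unadjusted p under 0.05, 2 were higher and 3 lower by edgeR. DESeq2 and limma-voom each called 0 higher and 1 lower. Other settings called 1 (replicate block), 2 (library size alone, upper quartile) or 3 (rpl13) higher. Beside them, 21.7% of all genes were called higher by library size alone, 20.1% by upper quartile and 25% by rpl13. With the replicate block it was 3417 of 20312 genes. Scaling to fast muscle counts called 0 higher and 0 lower, where 2.37% of all genes were called higher. The gene called lower was hsp90aa1.2. The ubiquitous hsp90ab1 had 3119 and 3241 CPM in nexn-/- embryos, against 3044 and 2887 CPM in nexn+/+ embryos, and was not called (0.10), nor was unc45a, the general paralog of unc45b (0.19).

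The list labelled cytosolic heat shock response, which was not limited to cytosolic chaperones, held 24 tested genes. Of them, 6 were called higher and 2 lower, with a median log2(FC) of 0.16. These are 25% and 8.33%, beside 16.7% and 13.9% of all genes. The largest log2(FC) was that of hsf4 (3.32), a heat shock factor known from the lens, at 5.97 and 7.34 CPM in nexn-/- embryos, against 0.414 and 0.906 CPM in nexn+/+ embryos. serpinh1a (1.56), which encodes a collagen chaperone, dnajb5 (1.24) and dnajb2 (0.88) were also called higher, whereas hspa9, with the highest CPM of the list, was not called (−0.09). The heat shock factor gene hsf1 (0.21) and hsp70.1 (−0.40), hsp70.2 (0.15), hsp70.3 (0.02) and hsp70l (−0.42) were not called either. Nor was hspa1b (1.02, adjusted p = 0.0842). The other genes called higher were serpinh1b (0.72) and dnajb1b (0.68), and those called lower were hspa4l (−0.78) and dnaja2b (−0.62).

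The 39 tested autophagy genes had 3 called higher and 8 lower, with a median log2(FC) of −0.23. These are 7.69% and 20.5%, beside 16.7% and 13.9% of all genes. The balance turned with the scaling, with 6 higher and 1 lower by rpl13, 4 and 3 by library size alone, and 5 and 4 by upper quartile. All genes shifted in the same direction, with 25%, 21.7% and 20.1% called higher, in that order. Genes called higher made up 54.5% of all calls with TMM, against 77.6% with rpl13. The turn was therefore not particular to the autophagy list. The genes called lower were atg12 (−0.87), which is needed to form the autophagosome, gabarapl2 (−0.75), wipi1 (−0.73), atg9a (−0.62), gabarapb (−0.56), nbr1b (−0.53), ulk2 (−0.52) and gabarapa (−0.51). Those called higher were the lysosomal regulator tfe3b (2.49), stx7l (1.90) and lamp1a (1.01). tfe3b rested on few counts, with 60 and 49 in nexn-/- embryos, against 5 and 11 in nexn+/+ embryos. lamp1a had 84 and 91 counts in nexn-/- embryos, against 37 and 35 in nexn+/+ embryos. map1lc3b, with the highest CPM of the list, had 173 and 166 CPM in nexn-/- embryos, against 174 and 170 CPM in nexn+/+ embryos, and was not called (−0.02).

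The Hippo pathway list, which holds the transcription cofactors and kinases that respond to tension and that the WW domain of mammalian BAG3 is tied to, had 12 of 25 tested genes called higher, 0 lower and a median log2(FC) of 0.58. At an unadjusted p under 0.05, 0 were lower by edgeR, and DESeq2 and limma-voom called 0 lower. The share called higher was 48%, beside 16.7% of all genes. With a limit of 1 on log2(FC), 7 were called higher, beside 2218 of all 20312 genes. Scaling to fast muscle counts left 1, beside 2.37% of all genes. Library size alone and upper quartile gave 15 each and rpl13 gave 17, beside 21.7%, 20.1% and 25% of all genes. The cofactor genes wwtr1 (2.40) and yap1 (0.76), the kinase gene lats2 (2.00) and the genes of the DNA-binding partners tead3a (1.74) and tead3b (1.72) were called higher. yap1, with the highest CPM of the list, had 134 and 128 CPM in nexn-/- embryos, against 76.0 and 78.3 CPM in nexn+/+ embryos. These genes are used in many tissues. The liver marker fabp10a had 19.0 and 21.4 CPM in nexn-/- embryos, against 4.87 and 2.01 CPM in nexn+/+ embryos, and the photoreceptor marker opn1sw1 946 and 962 CPM in nexn-/- embryos, against 2400 and 2768 CPM in nexn+/+ embryos. The part of tissue composition in these values was not tested.

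**Figure D5:**
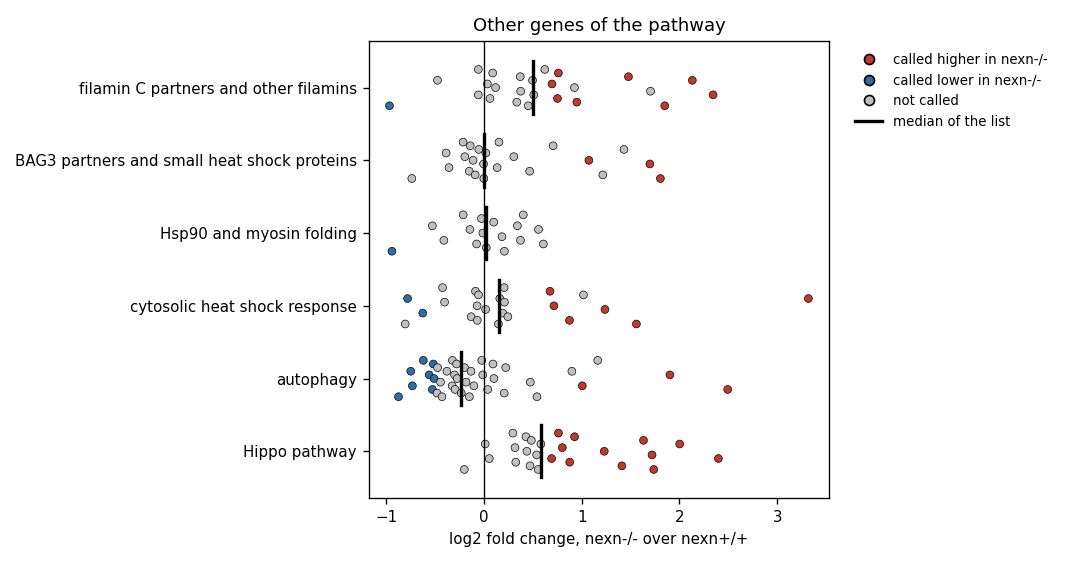
log2(FC) of each tested gene in the 6 lists (points; red: called higher in nexn-/- embryos, blue: called lower, grey: not called), with the median of each list as a vertical bar. Points are spread vertically for legibility. The Hippo pathway list has 12 red and 0 blue points, the autophagy list 3 red and 8 blue points with TMM scaling. With rpl13 scaling the autophagy list had 6 higher and 1 lower, where 25% of all genes were called higher.

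Scaling set how many of the 10 genes were called. With the libraries scaled to the counts of rpl13, the median log2(FC) of all genes shifted by 0.234 and 9 of the 10 genes were called higher, all but smyd1a, where 25% of all genes were. With library size alone (shift 0.147) 6 were called higher, unc45b being added, where 21.7% of all genes were. With the upper quartile (shift 0.103) 5 were called higher, where 20.1% of all genes were. Genes called higher made up 54.5% of all calls with TMM, 77.6% with rpl13, 70.13% by library size and 64.9% by upper quartile.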

How the data were processed

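Libraries were made from total RNA of whole embryos by a service provider. The submitters' processing notes name GRCz11, STAR and RSEM without versions, and the annotation release is not given in the sources used here. The authors deposited estimated counts per gene (not normalized), TPM and FPKM values for each library. The column headings of all 4 tables carry the name of 1 library, so each table was assigned by its deposition record. Expected counts were rounded to whole numbers and tested with edgeR 4.0.16 under R 4.3.3 (filterByExpr, TMM, quasi-likelihood test, genotype as the only term, Benjamini-Hochberg adjustment over all 20312 genes tested). Standard errors were taken as the absolute log2(FC) over the square root of the F statistic. Effective lengths were computed from deposited counts and FPKM values. The test was also run on simulated data, whose outcome is not given here and is no support for the calls. Alternatives used DESeq2 1.42.0, limma 3.58.1, other scalings, filters and limits, and each library left out.

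Genes of the group and lists were chosen with earlier results of these data known. Named by a rule set beforehand were the 10 genes, nexn, rpl13 and the paralogs flna, flnb, synpo2b, unc45a, hsp90aa1.2 and hsp90ab1 (synpo2a was not analysed here). The rule also took in each list up to 4 called genes with the largest change and the most abundant gene. Further genes of the filamin, heat shock and autophagy lists and the tissue markers bmp10, fabp10a and opn1sw1 were named outside this rule. Depth was 19413597 to 21956272 counts per library. Sequences were not analysed here.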

Additional observations from a re-analysis of the deposited data

How the results depend on the processing

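Over 17 alternatives, flncb, bag3, hspb8, synpo2lb and flnca kept their direction in all 17 and their call in 14. The alternatives that changed only the limit on log2(FC) reused the main fit and could not change a direction. The edgeR adjusted p of flnca stayed near the limit with median-of-ratios scaling (0.0461) and effective length (0.0443). The number of the 10 genes called higher, 5, was 9 with rpl13 scaling and 0 with scaling to fast muscle counts (where the log2(FC) of the 5 genes was larger and its SE too), and between 0 and 10 with a library left out, while the number called lower was between 0 and 1. In smyd1a (−0.12 on the log2 scale) the sign turned with limma-voom (0.037), library size alone (0.074), rpl13 (0.16), fast muscle counts (0.17), the replicate block (0.039) and effective length (0.047), and leaving out a library gave −0.66 to 0.75. The same range was −0.046 to 0.82 for synpo2la, −0.054 to 1.00 for hsp90aa1.1 and −0.016 to 1.66 for smyd1b. Of all 20312 genes tested, 3392 were called higher and 2831 lower with TMM, and 5081 and 1466 with rpl13. It was 482 and 39 with fast muscle counts, 2218 and 922 with a limit of 1 on log2(FC), and 1880 lower with library size alone. Over the 6 lists, 32 genes called higher and 12 lower became 52 and 4 with rpl13 and 2 and 0 with fast muscle counts. They became 20 and 0 with a limit of 1 on log2(FC), and 6 were lower with library size alone. Leaving out a library gave 0 to 55 higher and 0 to 20 lower. The ratio of smyd1a to smyd1b differed by −0.59 in TPM instead of −0.78. Summed fast muscle markers differed by −0.24 (log2), with −0.70 to 0.42 when a library was left out, slow muscle markers by 0.067, with −0.49 to 0.99, and heart markers by 1.43, with 1.59 by library size alone and 1.299 to 1.58 when a library was left out. These muscle settings were added after seeing the data. The labels do not say whether same-numbered libraries shared a batch. The replicate numbers are those of the sample titles, and the submitters' own library names are numbered otherwise. Same-numbered libraries did not deviate together (r = −0.019 over genes), a value that cannot show a batch that does not follow the numbers. With the replicate block 5 genes were still called higher. Except where a setting's own construction shows the cause, the cause was not tested.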
